A study of Mus musculus with 15 samples.

Results

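The nuclear genes for the subunits of the mitochondrial respiratory chain and ATP synthase were followed in RNA-seq of lineage-negative mouse bone marrow. Members were the protein-coding genes whose GENCODE symbols begin with the names used for subunits of complexes I, III, IV and V (Ndufa, Ndufb, Ndufc, Ndufs, Ndufv, Uqcr, Cox4i, Cox5 to Cox8 and Atp5, without the Ndufaf assembly factors), together with Sdha to Sdhd of complex II and Cyc1 of complex III. This gave 86 of the 45706 genes in the count table: 38 were assigned to complex I, 4 to complex II, 9 to complex III, 18 to complex IV and 17 to complex V. No measured value entered this choice. The symbols decide the assignment, so Ndufa4, which is now regarded as a subunit of complex IV, is counted here under complex I.

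The study asked what loss of the pro-apoptotic BH3-only protein PUMA (gene Bbc3) does to telomerase-deficient haematopoiesis under replicative stress. Donor mice were wild type (WT), deficient for Puma (Puma-/-), deficient for the telomerase RNA mTerc and bred to the third generation so that telomeres shorten (G3 mTerc-/-Puma+/+), or deficient for both (G3 mTerc-/-Puma-/-). Lin-Sca1+cKit+ (LSK) cells of these CD45.2+ donors were passed through serial transplantation into irradiated CD45.1+ hosts, and lineage-depleted marrow of the secondary hosts was sequenced. Each deletion was present in all cells of the donors that carried it, all 4 groups went through the same transplantations, and cells of the host can remain in the marrow. There were 3 WT libraries and 4 of each other genotype. Nothing in the labels says which host each library came from, so p-values measure the spread between these samples.

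The respiratory chain moves electrons from NADH through complex I and from succinate through complex II to coenzyme Q, on through complex III and cytochrome c to complex IV, which reduces oxygen, and complex V uses the proton gradient so built to make ATP. Most subunits are nuclear genes whose proteins are imported and assembled with a small mitochondrially encoded core, while complex II is nuclear throughout. In marrow, long-term stem cells rely largely on glycolysis, and oxidative phosphorylation rises as progenitors are activated and differentiate.

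The 15 libraries held 102790519 to 158367059 counts each. One of them, G3 mTerc-/-Puma-/- replicate 2, stood apart: its monocyte marker sum (Csf1r, Ly86, F13a1, Ccr2 and Irf8) was 213 normalised CPM (counts scaled to a common library size) against 1928 to 2840 in the other 14, and its erythroid marker sum was 2304 CPM against 205 to 505. It was left out of the tests, as it is from the study's own heatmaps, and its values are given beside the results they touch. The check of the targeted genes gave 5.04 to 6.83 CPM of Bbc3 in the Puma-/- libraries, 9.71 to 23.5 CPM in WT and 11.8 to 20.8 CPM in G3 mTerc-/-Puma+/+. The libraries labelled G3 mTerc-/-Puma-/- held 13.5 to 17.1 CPM, so Bbc3 RNA did not separate them from the groups with intact Puma. A direction drawn from that group is one of the libraries so labelled. Which bases the Puma allele lacks is not given in the sources used here. Terc, which is not polyadenylated, was at or under 0.158 CPM in all libraries. Within these low levels it was at 0.0691 to 0.158 CPM in WT and 0.0356 to 0.1 CPM in Puma-/-. It was at 0 to 0.00984 CPM in G3 mTerc-/-Puma+/+ and at 0 to 0.00882 CPM in the libraries labelled G3 mTerc-/-Puma-/-. Terc RNA thus separated the groups labelled mTerc-/- from the others. Genes that mark the sex of the cells differed between groups. The Y-linked gene Kdm5d was at 0 to 0.0627 CPM in Puma-/-, 13.1 to 27.4 CPM in WT, 26.4 to 29.4 CPM in G3 mTerc-/-Puma+/+ and 2.55 to 4.31 CPM in G3 mTerc-/-Puma-/- replicates 1, 3 and 4, and Kdm5d, Eif2s3y, Uty and Ddx3y were all called lower in Puma-/- than in WT (adjusted p at most 0.00113). Xist, which marks female cells, passed in no comparison (adjusted p = 0.644 for any difference): it ranged from 466 to 868 CPM in Puma-/-, from 0.177 to 88.9 CPM in G3 mTerc-/-Puma+/+, from 1.73 to 418 CPM in WT and from 0.388 to 662 CPM in G3 mTerc-/-Puma-/-.

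Of the 86 members, 83 had enough counts to be tested. Expression was given as normalised CPM, and levels of different genes were compared per kilobase of the principal transcript. The subunits with the highest level per kilobase in their complex were Atp5b, the catalytic beta subunit of ATP synthase, at 625 ± 76.1 CPM per kb (SD over 14 libraries), Cox4i1, a nuclear subunit of cytochrome c oxidase, at 476 ± 61.0, Ndufa4 at 433 ± 65.8, Uqcrh, the hinge protein of complex III, at 347 ± 43.2, and Sdhd, a membrane anchor of succinate dehydrogenase, at 129 CPM per kb. Atp5b stood above all the others, whereas Cox4i1 and Ndufa4 differed by less than their spread. The median over the tested members was 87.4 CPM per kb for complex I, 103 for complex II, 154 for complex III, 207 for complex IV and 249 for complex V. In complex I, 36 of 38 members were over 10 CPM, in complexes II and III all 4 and all 9, in complex IV 12 of 18 and in complex V 16 of 17.

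**Figure D1:**
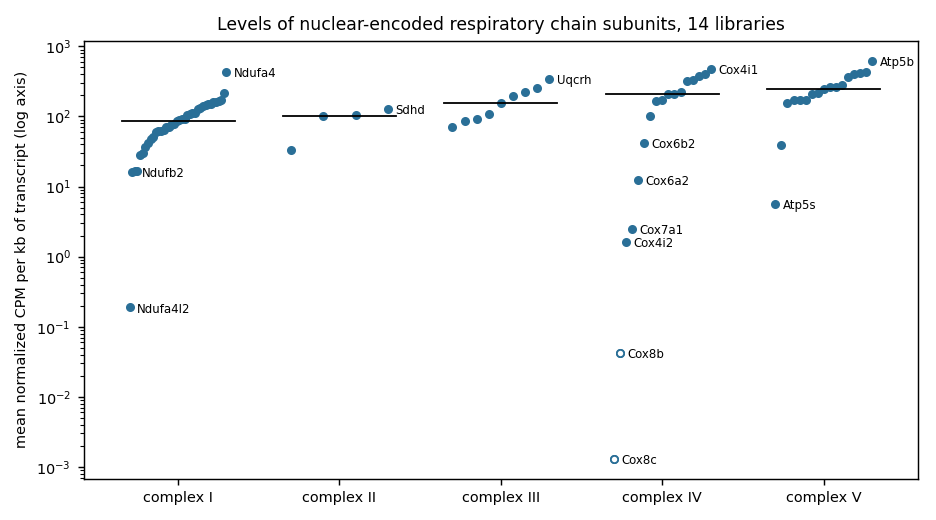
Mean normalised CPM per kilobase of transcript (log axis) of each member over 14 libraries, by complex. Each point is a gene, open points are genes with too few counts to be tested, bars are medians of the tested members, and Cox7b2 at 0 is not drawn. Most members lie between 16.3 and 625, and the low points in complex IV are tissue-restricted isoforms.

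Several complex IV subunits exist as a ubiquitous and a tissue-restricted isoform, and in these libraries the ubiquitous one made up most of each pair. Cox4i1 stood at 476 CPM per kb against 1.64 for Cox4i2, the hypoxia-inducible form known from lung, and Cox4i2 made up 0.203% to 0.544% of the pair. Cox7a2 stood at 207 CPM per kb against 2.48 for its heart and muscle isoform Cox7a1. Cox6a1 stood at 378 CPM per kb against 12.4 for the heart and muscle isoform Cox6a2. Cox6b1 stood at 329 CPM per kb against 42.1 for the testis isoform Cox6b2, which thus had the largest share of the tissue-restricted isoforms, 6.10% to 13.8% of its pair in the 14 libraries and 26.5% in G3 mTerc-/-Puma-/- replicate 2. Cox8a stood at 405 CPM per kb, while the heart and muscle isoform Cox8b had 27 counts, Cox8c 1 count and the testis gene Cox7b2 0 counts in all 15 libraries together. These 3 genes were removed by the filter on low counts, and 3 counts in 1 library correspond to 0.0189 to 0.0292 CPM. Ndufa4l2, a hypoxia-responsive paralogue of Ndufa4, was at 0.188 CPM per kb against 433. The 3 genes for the identical c-ring protein of ATP synthase differed in level per kilobase: Atp5g3 stood at 365 CPM per kb, Atp5g2 at 264 and Atp5g1 at 39.7. These values rest on the transcript used, which had 4715 bases for Atp5g1, 441 for Atp5g2 and 714 for Atp5g3. Without division by length Atp5g1 lay above Atp5g2, with WT means of 186 and 117 CPM, and Atp5g3 stood at 264 CPM.

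Part of these levels depends on how reads were assigned. Ndufb2, a complex I accessory subunit, had 5.73 to 9.03 CPM, and 50.3% of its transcript lies under Gm42420, a gene on the same strand with 0 counts in all 15 libraries. For Atp5g2, 100% of the transcript is matched at 97% identity or more by annotated copies elsewhere, for Atp5h 77.6%, for Atp5o 76.7%, for Ndufs3 75.7% and for Atp5l 72.2%. In all, 14 members had more than 30% of the transcript in such copies. Reads that fit 2 places equally well were not counted, so the levels of these members are uncertain.

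Promoters were examined for sequence that the members share beyond their names. RefSeq promoters (build GRCm38.p6, 250 bases before to 50 bases after the start) were found for 67 of the 86 members. Counts are per gene symbol, and a gene with several promoters counted if any of them matched. An NRF-1 type element, GCATGCGC on either strand, was present in 10 of the 67 (14.9%) and in 3.05% of all 27025 gene symbols with a promoter. An ETS type element, CCGGAAG, was present in 16 (23.9%, against 9.93%), and a YY1 type element, AAGATGGCG, in 7 (10.4%, against 1.64%). NRF-1 and the ETS factor GABP (NRF-2) are known regulators of respiratory genes, and YY1 sites recur near the start sites of many housekeeping genes. At least 1 of the 3 elements was found in 27 of the 67. A match is a description of letters and not a site shown to be bound.

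The 5 members that held both the NRF-1 type and the ETS type element are shown because they carry the shared letters of 4 complexes. They are Sdhb, the iron-sulphur subunit of complex II (chr4:140961021-140961320, plus strand), Uqcr11, a small subunit of complex III (chr10:80406772-80407071, minus strand), Cox6a1 of complex IV (chr5:115348909-115349208, minus strand), and Atp5k (chr5:108434350-108434649, minus strand) and Atp5l (chr9:44920693-44920992, minus strand), the e and g subunits of ATP synthase. Capitals mark the elements, read 5′ to 3′ on the gene's strand.
Sdhb: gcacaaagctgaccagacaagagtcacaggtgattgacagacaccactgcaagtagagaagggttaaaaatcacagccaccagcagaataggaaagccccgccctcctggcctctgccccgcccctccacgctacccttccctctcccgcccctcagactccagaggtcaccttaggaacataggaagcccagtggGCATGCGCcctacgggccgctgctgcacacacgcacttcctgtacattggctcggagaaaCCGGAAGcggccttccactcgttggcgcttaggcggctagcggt
Uqcr11: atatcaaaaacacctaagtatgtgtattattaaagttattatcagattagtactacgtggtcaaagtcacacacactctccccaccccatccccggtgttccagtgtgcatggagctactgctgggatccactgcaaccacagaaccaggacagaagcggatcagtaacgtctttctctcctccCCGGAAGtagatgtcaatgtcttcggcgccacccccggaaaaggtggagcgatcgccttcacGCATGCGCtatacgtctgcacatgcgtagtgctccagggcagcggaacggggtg
Cox6a1: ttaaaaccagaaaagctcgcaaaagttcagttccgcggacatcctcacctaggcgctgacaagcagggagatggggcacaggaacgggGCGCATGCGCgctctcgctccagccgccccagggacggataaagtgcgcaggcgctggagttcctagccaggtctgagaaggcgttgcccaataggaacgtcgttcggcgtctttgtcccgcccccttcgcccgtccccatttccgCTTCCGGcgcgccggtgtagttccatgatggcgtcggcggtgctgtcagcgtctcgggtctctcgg
Atp5k: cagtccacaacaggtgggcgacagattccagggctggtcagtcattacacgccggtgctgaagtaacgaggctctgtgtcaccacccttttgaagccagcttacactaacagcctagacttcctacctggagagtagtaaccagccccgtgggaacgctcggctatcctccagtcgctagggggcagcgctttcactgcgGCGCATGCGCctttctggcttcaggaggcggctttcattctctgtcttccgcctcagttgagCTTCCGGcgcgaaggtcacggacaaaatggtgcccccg
Atp5l: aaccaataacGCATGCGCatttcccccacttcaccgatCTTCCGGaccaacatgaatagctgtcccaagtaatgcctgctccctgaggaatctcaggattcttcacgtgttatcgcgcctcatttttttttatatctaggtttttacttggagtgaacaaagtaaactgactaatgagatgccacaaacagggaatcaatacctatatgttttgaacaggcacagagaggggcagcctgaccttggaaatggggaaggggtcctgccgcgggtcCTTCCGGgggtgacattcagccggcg
In Cox6a1 and Atp5k the NRF-1 type element lies in the palindrome GCGCATGCGC, in which both strands match. The complex I promoters with an NRF-1 type element were those of Ndufa6, Ndufa8 and Ndufa11, and none of them held the ETS type element.

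Across libraries the subunits moved together, and they did so within genotypes. For each tested member the deviation of its log2 CPM from its mean over 14 libraries was taken, and the median over the 83 members was computed for each library. This median was -0.07, 0.05 and 0.07 in WT, -0.22, -0.24, 0.18 and -0.13 in Puma-/-, -0.01, 0.34, -0.04 and 0.00 in G3 mTerc-/-Puma+/+ and -0.22, 0.11 and 0.17 in G3 mTerc-/-Puma-/- replicates 1, 3 and 4. In Puma-/- replicate 3 was above 0 and the other 3 below, in G3 mTerc-/-Puma+/+ replicate 2 was high and the other 3 near 0, and in G3 mTerc-/-Puma-/- replicate 1 was low. In G3 mTerc-/-Puma+/+ replicate 2, 79 of 83 members lay above their mean, in Puma-/- replicate 3, 77 of 83, and in G3 mTerc-/-Puma-/- replicate 4, 79 of 83. In Puma-/- replicate 1, 2 of 83 lay above it and in G3 mTerc-/-Puma-/- replicate 1, 3 of 83. The genotype means of this median spanned 0.17, which is no more than the pooled spread of libraries within a genotype (SD 0.18), and the libraries spanned 0.58.

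**Figure D2:**
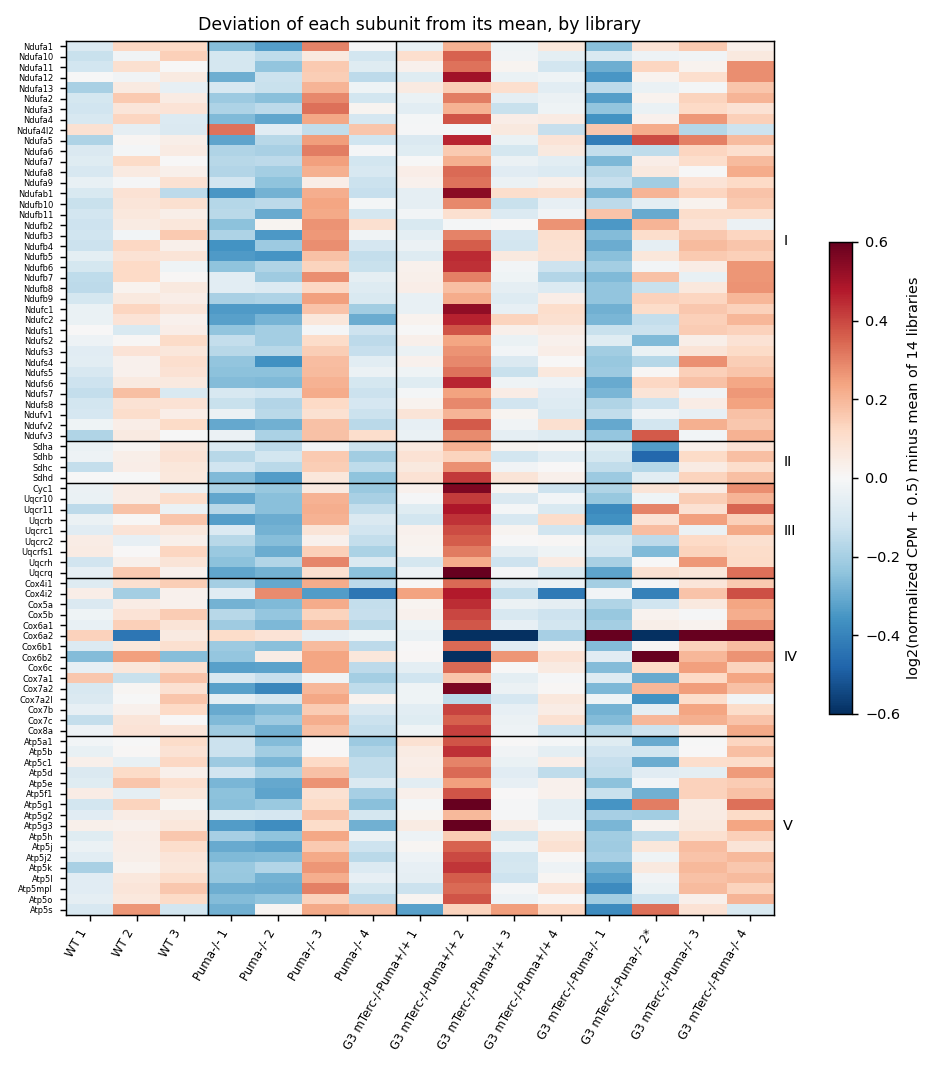
Deviation of each of the 83 tested members (rows, grouped by complex I to V) from its mean over 14 libraries, as log2(normalised CPM + 0.5), in each library (columns, grouped by genotype; colours stop at 0.6 either way). The asterisk marks the library left out of the means. Whole columns share a colour: G3 mTerc-/-Puma+/+ replicate 2 is high and Puma-/- replicates 1 and 2 are low across all complexes, and Cox6a2, Cox6b2 and Ndufa4l2 depart from the column colour.

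To see whether the complexes follow each other, each member's deviation was set against the median of the members of the other 4 complexes. Subtracting that median made the spread over the 14 libraries smaller for 77 of 83 members, and the median SD fell from 0.18 to 0.08 on the log2 scale. It became smaller for 36 of 38 members of complex I, 3 of 4 of complex II, all 9 of complex III, 12 of 15 of complex IV and all 17 of complex V. Subtracting the median of all 83 members made the spread smaller for 24.3% of all genes tested. The members with the largest remaining spread were Cox6a2 (0.75), Ndufa4l2 (0.61), Cox4i2 (0.40), Cox6b2 (0.32) and Atp5s (0.22), the coupling factor B. Ndufb2 (0.19) and Cox7a2l (0.18), a factor of supercomplex assembly, came next. Of these, Ndufa4l2 (mean 0.176 CPM) and Cox4i2 (genotype means of 1.04 to 1.39 CPM) stood at low levels. Cox7a1 was also low (mean 0.976 CPM), with a remaining spread of 0.17. The part of counting error in these spreads was not tested.

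In summed CPM, all members together took 11301, 12158 and 12421 in WT, 10332, 9966, 12985 and 10684 in Puma-/-, 11853, 15059.7, 11535 and 11641 in G3 mTerc-/-Puma+/+, and 10386, 12469 and 13266 in G3 mTerc-/-Puma-/- replicates 1, 3 and 4. The highest library exceeded the lowest 1.51-fold, and the share of all counts was 1.04% to 1.39%. By complex the highest library exceeded the lowest 1.43-fold for complex I, 1.37-fold for complex II, 1.59-fold for complex III, 1.51-fold for complex IV and 1.56-fold for complex V. Mean sums were 11960.0 ± 586 CPM in WT, 10992 ± 1360 CPM in Puma-/-, 12522 ± 1697 CPM in G3 mTerc-/-Puma+/+ (each SD, n = 3, 4 and 4), the 3 libraries of G3 mTerc-/-Puma-/- had 12041 ± 1487 CPM, and the ranges of all 4 genotypes overlapped.

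Markers of granulocyte precursors moved with these sums in several libraries. The early granule genes (Mpo, Elane, Prtn3, Ctsg and Ms4a3, of promyelocytes and their precursors) summed to 26102 CPM in G3 mTerc-/-Puma+/+ replicate 2 and 21911 CPM in Puma-/- replicate 3, the highest values of their groups, and to 12931 CPM in Puma-/- replicate 2 and 14438 CPM in G3 mTerc-/-Puma-/- replicate 1, the lowest of theirs. Puma-/- replicate 1, with low subunit levels, stood at 19079.5 CPM and so did not follow this. Early granule sums ranged from 14585 to 20172 in WT, 12931 to 21911 in Puma-/-, 16943 to 26102 in G3 mTerc-/-Puma+/+ and 14438 to 20091 in G3 mTerc-/-Puma-/-. The part of these markers in the subunit levels was not tested. In bulk RNA, fewer cells of a type and less RNA in each cell cannot be told apart.

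**Figure D3:**
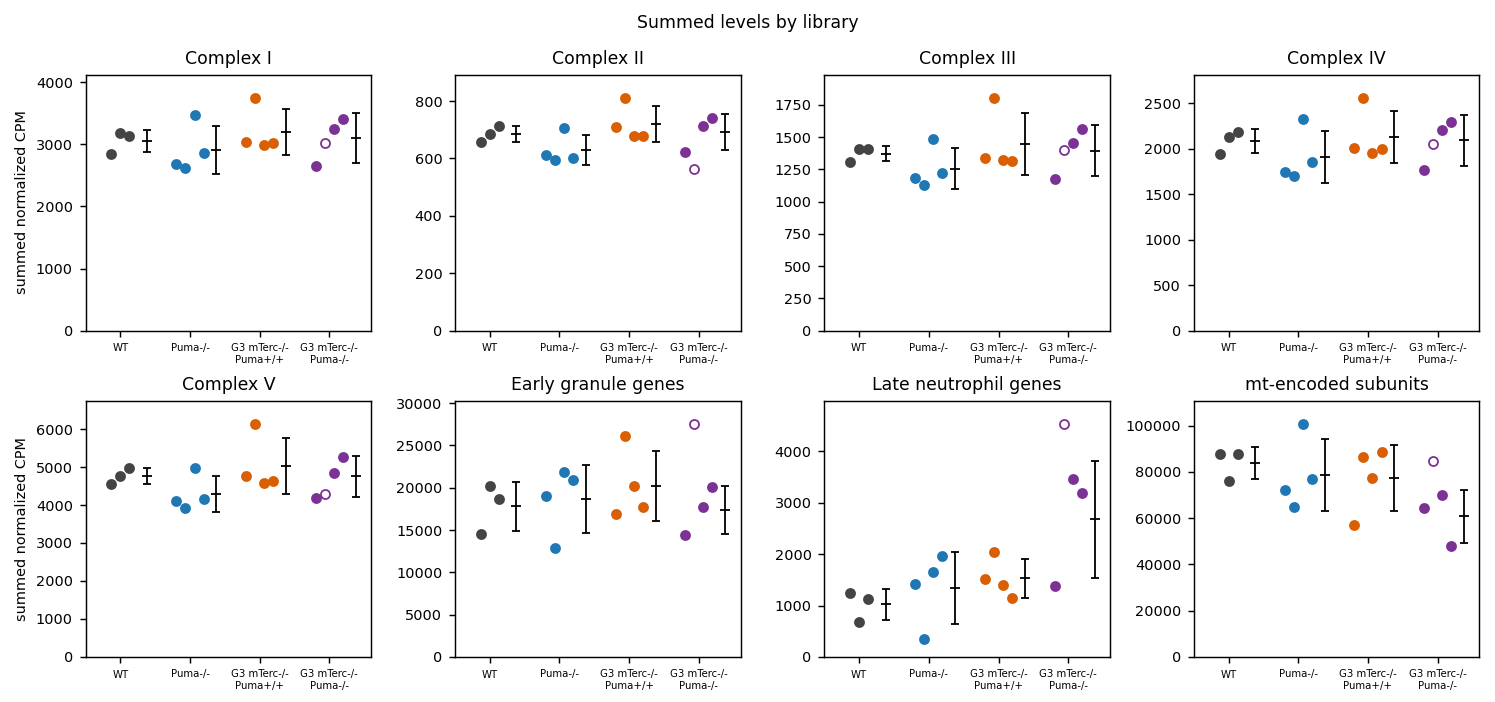
Summed normalised CPM of the members of each complex, of 5 early granule genes, of 7 late neutrophil genes and of the 13 mitochondrially encoded subunits, by library and genotype. Points are libraries, the open point is G3 mTerc-/-Puma-/- replicate 2, and bars are the mean ± SD of the other libraries (n = 3 for WT and G3 mTerc-/-Puma-/-, n = 4 for the other groups). In all 5 complexes 1 G3 mTerc-/-Puma+/+ library lies above the others of its group.

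Genotypes were compared with edgeR's quasi-likelihood test over 18983 genes, with Benjamini-Hochberg adjustment at 0.05. None of the 83 members passed in any of the 6 pairwise comparisons, the interaction of mTerc and Puma, or the test of any difference among the 4 genotypes. For Puma-/- against WT, 0 members passed (0.079% of all genes passed) and 0 had an unadjusted p under 0.05 (10.1% of all genes). Here 11 of 83 fitted log2 fold changes were above 0 and the median was -0.10, with a median standard error (SE) of 0.14. With the Xist level as a covariate in the fit the median was -0.0061 and 37 of 83 were above 0. Neither Kdm5d nor Xist overlapped between Puma-/- and WT, so the sex of the cells and the genotype cannot be told apart in this comparison. For G3 mTerc-/-Puma+/+ against WT, 0 members passed (0.0369% of all genes) and 0 had an unadjusted p under 0.05 (3.86% of all genes), with 71 of 83 above 0 and a median of 0.06. For G3 mTerc-/-Puma-/- against WT, 0 passed (0.0632%) and 1 had an unadjusted p under 0.05 (5.45%), with 52 of 83 above 0 and a median of 0.01. Kdm5d was called lower in G3 mTerc-/-Puma-/- in this comparison (adjusted p = 0.0177) and did not overlap between the tested libraries. DESeq2 and limma-voom called 0 members in these 3 comparisons, with 0 to 1 unadjusted p under 0.05 each.

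The comparison of G3 mTerc-/-Puma+/+ with Puma-/-, groups that differ at both loci, had the most low p-values. Again 0 members passed the adjustment with edgeR, DESeq2 or limma-voom (0.801% of all genes passed with edgeR), and 11 had an unadjusted p under 0.05 (17.1% of all genes). Of these, 10 of 83 were higher in G3 mTerc-/-Puma+/+ (8.19% of all genes) and 1 of 83, Cox6a2, was lower (8.96%). The share of members with a low p was thus somewhat above that of all genes upward, and below it downward and in all. The members moved together across libraries, so these counts are not of independent genes. Fitted fold changes were above 0 for 78 of 83 members with a median of 0.17, while the median of all genes was 0.00. They were above 0 for 36 of 38 members of complex I, all 4 of complex II, all 9 of complex III, 12 of 15 of complex IV and all 17 of complex V, with medians of 0.13, 0.16, 0.21, 0.18 and 0.18. A single library decided much of this: without G3 mTerc-/-Puma+/+ replicate 2 the median was 0.07 and 2 members had an unadjusted p under 0.05, and without Puma-/- replicate 3 the median was 0.26 and 47 did. The shares of all genes in these fits are not given here, so these counts cannot be set against a background. With Xist as a covariate the median was 0.03, 52 of 83 were above 0 and 0 had an unadjusted p under 0.05. Neither Kdm5d nor Xist overlapped between these groups, so the sex of the cells and the genotype cannot be told apart here.

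For G3 mTerc-/-Puma-/- against Puma-/-, 0 members passed (0.306% of all genes) and 1 had an unadjusted p under 0.05 (8.42%), with 77 of 83 above 0 and a median of 0.13. With Xist as a covariate this median was 0.04 and 60 of 83 were above 0. Kdm5d did not overlap between the tested libraries of these groups. For G3 mTerc-/-Puma-/- against G3 mTerc-/-Puma+/+, 0 passed (0.0738%) and 1 had an unadjusted p under 0.05 (6.22%), with 13 of 83 above 0 and a median of -0.05. With Xist as a covariate the median was 0.0019 and 44 of 83 were above 0. Kdm5d was called lower in G3 mTerc-/-Puma-/- here (adjusted p = 0.00636) and did not overlap between the tested libraries. The interaction gave 0 passed (0.0527%) and 1 with an unadjusted p under 0.05 (4.93%), with 68 of 83 above 0 and a median of 0.06. The test of any difference among genotypes gave 0 passed (0.448%) and 1 with an unadjusted p under 0.05 (11.4%). The 1 member with a low p in each of these 4 tests, and in G3 mTerc-/-Puma-/- against WT, was Cox6a2. The comparisons share libraries, so their medians are not independent of each other. Scaling by library size alone moved the number above 0 to 23 of 83 for Puma-/- against WT, 77 of 83 for G3 mTerc-/-Puma-/- against WT and 29 of 83 for G3 mTerc-/-Puma-/- against G3 mTerc-/-Puma+/+, while the median of all genes then lay at most 0.07 from 0.

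**Figure D4:**
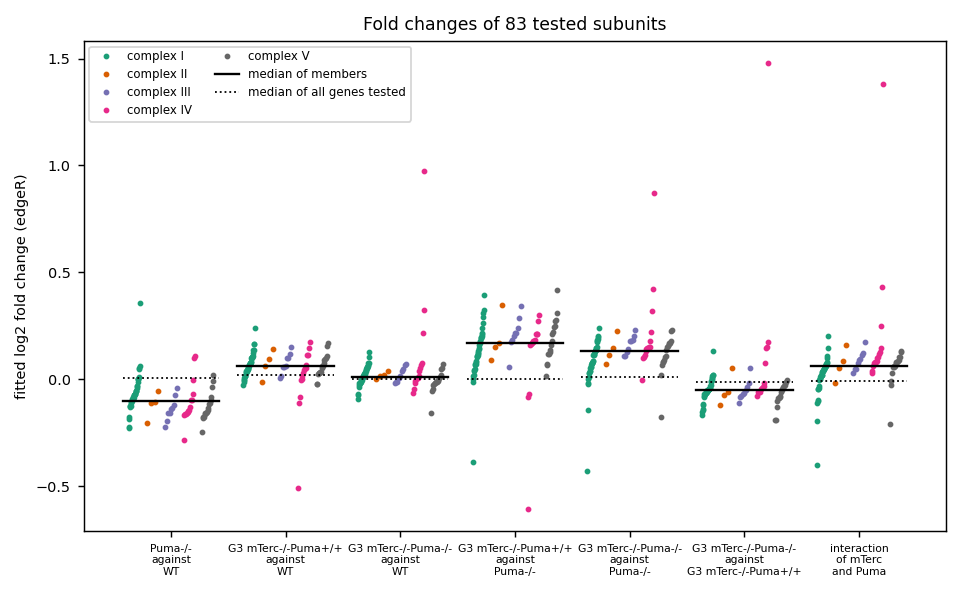
Fitted log2 fold change of each of the 83 tested members in the 6 pairwise comparisons and the interaction, coloured by complex. Solid bars are the median of the members and dotted bars the median of all 18983 genes tested. Most members lie within 0.3 of the solid bar, and the single high point in complex IV from 0.87 to 1.48 is Cox6a2.

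The members with an unadjusted p under 0.05 for G3 mTerc-/-Puma+/+ against Puma-/- came from all 5 complexes, Cox6a2 being the 1 member of complex IV and the 1 that was lower (log2 fold change -0.61, adjusted p = 0.236). Ndufc2, a membrane-arm subunit of complex I, was at 39.9, 41.3, 52.6 and 40.7 CPM in Puma-/- and at 50.9, 69.5, 55.1 and 53.7 CPM in G3 mTerc-/-Puma+/+. The groups overlapped through Puma-/- replicate 3, and the log2 fold change was 0.39 ± 0.12 (SE) with an adjusted p of 0.14. Ndufs1, the largest iron-sulphur subunit of the NADH-oxidising arm, was at 67.5, 69.1, 79.4 and 73.0 CPM in Puma-/- and at 79.6, 104, 81.2 and 82.4 CPM in G3 mTerc-/-Puma+/+. These 2 groups did not overlap, by a margin of less than 1 CPM, and the difference of 0.26 ± 0.09 had an adjusted p of 0.183. Ndufa9, a subunit of the junction between the arms, differed by 0.20 (adjusted p = 0.271).

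In complex II, Sdhd was at 131, 125, 165 and 133 CPM in Puma-/- and at 167, 211, 166 and 161 CPM in G3 mTerc-/-Puma+/+, a difference of 0.35 ± 0.11 (adjusted p = 0.148). Sdha, the flavoprotein that oxidises succinate, was at 282, 268, 295 and 273 CPM in Puma-/- and at 311, 345, 302 and 300.0 CPM in G3 mTerc-/-Puma+/+. Its groups did not overlap, and its difference was 0.17 ± 0.07 (adjusted p = 0.214). Sdhc, the other membrane anchor, was at 93.2 to 116 CPM in Puma-/- and 103 to 126 CPM in G3 mTerc-/-Puma+/+, which overlapped.

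In complex III the lowest p was that of Uqcrc2, a core protein, at 154, 145, 176 and 157 CPM in Puma-/- and 176, 222, 173 and 174 CPM in G3 mTerc-/-Puma+/+ (log2 fold change 0.24 ± 0.09, adjusted p = 0.206). Uqcrfs1, the Rieske iron-sulphur protein, and Cyc1, cytochrome c1, did not reach an unadjusted p of 0.05. Cyc1 was at 144, 140.1, 171 and 141 CPM in Puma-/- and 167, 242, 166 and 151 CPM in G3 mTerc-/-Puma+/+. In both groups 1 library lay far above the rest, and these were the libraries in which the whole machinery was high.

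In complex V, Atp5g3 had the largest difference of a member higher in G3 mTerc-/-Puma+/+, at 203, 198, 277 and 210.1 CPM in Puma-/- and 265, 403, 265 and 255 CPM in G3 mTerc-/-Puma+/+ (0.42 ± 0.16, adjusted p = 0.2). Atp5a1, the catalytic-head alpha subunit, was at 904, 827, 991 and 849.6 CPM in Puma-/- and 1053, 1287, 991 and 980.2 CPM in G3 mTerc-/-Puma+/+ (0.27 ± 0.10, adjusted p = 0.19). Atp5b was at 1089, 1028, 1190.0 and 1051 CPM in Puma-/- and 1229, 1609.8, 1173 and 1142 CPM in G3 mTerc-/-Puma+/+ (0.24 ± 0.11, adjusted p = 0.286). Atp5f1, the b subunit of the stator, differed by 0.27 ± 0.11 (adjusted p = 0.224), and 43.4% of its transcript lies in a copy. In all 4 genes G3 mTerc-/-Puma+/+ replicate 2 was the highest library of the 15.

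The ubiquitous complex IV subunits gave no unadjusted p under 0.05 in this comparison. Cox4i1 was at 306, 285, 410.4 and 316 CPM in Puma-/- and 354, 446, 337 and 345 CPM in G3 mTerc-/-Puma+/+, and Cox7a2 at 107, 102, 155 and 121 CPM and 132, 199, 131 and 135 CPM. Cox7a2l was one of 4 members below their mean in G3 mTerc-/-Puma+/+ replicate 2, where it stood at 165 CPM, the lowest value of the 14 libraries, against 171 to 217 CPM in Puma-/-. On the X chromosome, Ndufa1, a small membrane-arm subunit, ranged from 46.5 to 72.1 CPM over the 14 libraries, Ndufb11 from 110.4 to 159.5 CPM and Cox7b from 134 to 219 CPM, and none had an unadjusted p under 0.05.

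Cox6a2 was the member that departed furthest from the rest. It encodes the form of subunit VIa found in heart and skeletal muscle and is also known as a transcript of plasmacytoid dendritic cells. It was at 8.56, 5.59 and 8.05 CPM in WT, at 8.40, 8.23, 7.47 and 7.60 CPM in Puma-/-, at 7.50, 2.85, 3.80 and 6.67 CPM in G3 mTerc-/-Puma+/+, and at 14.7, 13.6 and 15.2 CPM in G3 mTerc-/-Puma-/- replicates 1, 3 and 4. Those 3 libraries lay above all others, while replicate 2 of the same label, which stood apart in its markers, was the lowest of all at 0.561 CPM. Set against G3 mTerc-/-Puma+/+, edgeR fitted a log2 difference of 1.48 ± 0.27 (SE) with an adjusted p of 0.0761, which misses the threshold. DESeq2 gave an adjusted p of 2.2e-05, limma-voom 0.026 and edgeR with no count filter 0.0359. Of the 18983 genes, 172 passed in this comparison with DESeq2, 12 with limma-voom and 14 with edgeR in the main fit. With all 15 libraries edgeR gave 1.08 (adjusted p = 0.588), and with Xist as a covariate in the main fit 1.44 (adjusted p = 0.113). Kdm5d and Eif2s3y were called lower in the same comparison (adjusted p = 0.00636 for each with edgeR). The sex of the cells and the genotype thus cannot be fully told apart here. A two-sided exact permutation test of the 3 libraries against 4 gave p = 0.0571, the smallest it can give. The result therefore rests on the tool, the filter and on leaving out 1 library.

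The ubiquitous isoform Cox6a1 did not share this pattern, with 208, 236 and 226 CPM in WT and 186, 217 and 259 CPM in G3 mTerc-/-Puma-/- replicates 1, 3 and 4. Cox6a2 made up 0.857% of the Cox6a pair in G3 mTerc-/-Puma+/+ replicate 2 and 6.24% in G3 mTerc-/-Puma-/- replicate 1. Some markers of plasmacytoid dendritic cells moved with it. Siglech, a receptor of these cells, was at 34.7, 16.4 and 24.6 CPM in WT, 35.6, 25.2, 23.0 and 29.0 CPM in Puma-/-, 21.7, 8.08, 9.18 and 23.3 CPM in G3 mTerc-/-Puma+/+, and 50.2, 41.3 and 47.6 CPM in G3 mTerc-/-Puma-/-, with 0.133 CPM in replicate 2. Spib, a transcription factor of the same cells, was at 28.2 to 39.9 CPM in those 3 G3 mTerc-/-Puma-/- libraries, 5.81 to 26.0 CPM in G3 mTerc-/-Puma+/+, 24.8 ± 4.53 CPM in WT (SD, n = 3) and 24.0 to 37.2 CPM in Puma-/-. For Spib the G3 mTerc-/-Puma-/- libraries thus lay above G3 mTerc-/-Puma+/+ but overlapped with WT and Puma-/-, against which it differed by 0.52 (unadjusted p = 0.197) and 0.22 (unadjusted p = 0.555). Over the whole list (Siglech, Ccr9, Klk1, Pacsin1, Tcf4, Bst2, Spib and Runx2, chosen after the values of Cox6a2 were seen), the summed level was 321 to 417 CPM in WT, 346 to 414 in Puma-/-, 232 to 375 in G3 mTerc-/-Puma+/+ and 414 to 484 in G3 mTerc-/-Puma-/-, and 136 CPM in replicate 2. None of the 8 passed the adjusted threshold in G3 mTerc-/-Puma-/- against G3 mTerc-/-Puma+/+, where Ccr9 differed by 1.71 (adjusted p = 0.0773) and Siglech by 1.57 (adjusted p = 0.126). The part of these cells in the Cox6a2 level was not tested. The 8 muscle genes examined (Acta1, Ckm, Mylpf, Tnnt3, Tnni2, Myh4, Myl2 and Mb) summed to 6.07 to 14.3 CPM in the 14 libraries, with 9.46 to 9.66 CPM in the 3 G3 mTerc-/-Puma-/- libraries, and Ckm stayed at or under 0.289 CPM.

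**Figure D5:**
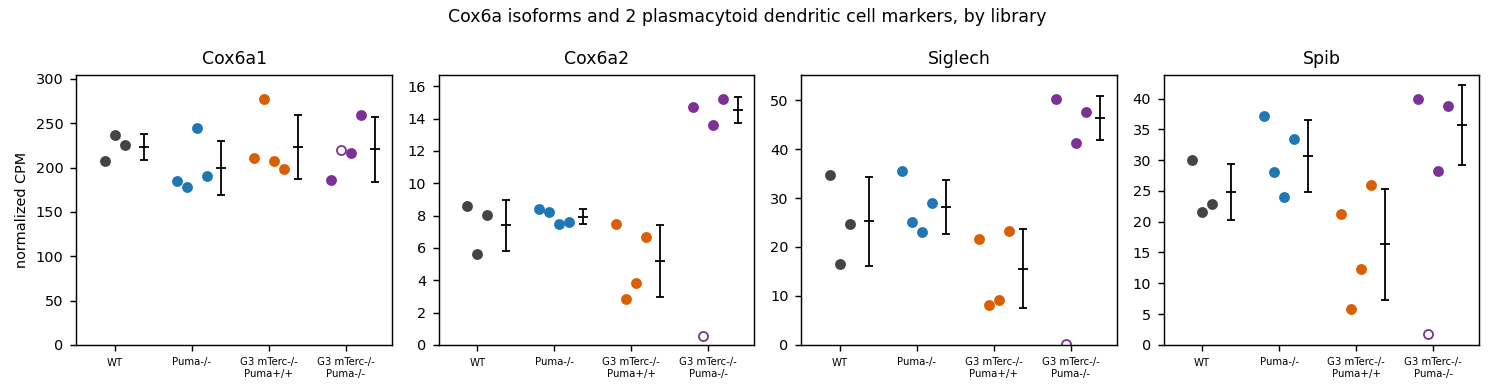
Normalised CPM of Cox6a1, Cox6a2 and the plasmacytoid dendritic cell genes Siglech and Spib by library and genotype. Points are libraries, the open point is G3 mTerc-/-Puma-/- replicate 2, and bars are the mean ± SD of the other libraries (n = 3 for WT and G3 mTerc-/-Puma-/-, n = 4 for the other groups). Cox6a2 and Siglech are highest in the 3 filled G3 mTerc-/-Puma-/- points and lowest in the open one, and Cox6a1 is not.

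Other isoforms departed in the library that stood apart. Cox6b2 was at 65.6 CPM in G3 mTerc-/-Puma-/- replicate 2 and at 14.9 to 27.8 CPM in the other 14 libraries, with the lowest value in G3 mTerc-/-Puma+/+ replicate 2. Complex II sums were lowest of all in G3 mTerc-/-Puma-/- replicate 2, at 564 CPM against 594 to 811, whereas its sums for the other complexes lay inside the range of the others. With this library included the median fold change of the members was 0.00 for G3 mTerc-/-Puma-/- against WT, 0.11 against Puma-/- and -0.06 against G3 mTerc-/-Puma+/+, and 0 members passed.

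The genes that build and feed the complexes were compared in the same fits. Of 52 assembly factors listed, 49 were tested and 0 passed in any of the 8 tests. For G3 mTerc-/-Puma+/+ against Puma-/-, 7 of the 49 had an unadjusted p under 0.05, all higher in G3 mTerc-/-Puma+/+, beside 17.1% of all genes in either direction and 8.19% higher, and the median over the 49 was 0.14. The lowest p was that of Coa5, a complex IV assembly factor (0.22 ± 0.05, adjusted p = 0.0524). Of 14 genes for coenzyme Q synthesis and cytochrome c, 0 passed. In the same comparison 5 of the 14 had an unadjusted p under 0.05 (17.1% of all genes), among them Coq10b, a coenzyme Q binding protein, higher by 0.55 (adjusted p = 0.0732), Cycs, somatic cytochrome c, higher by 0.31 (adjusted p = 0.288), and Coq8a, a kinase-like protein of coenzyme Q synthesis, lower (-0.37, adjusted p = 0.105).

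The 13 subunits encoded in mitochondrial DNA ranked the libraries like the nuclear ones in Puma-/- but not in the other 3 genotypes. Their summed level was 87735, 75988 and 87645 CPM in WT, 72119.6, 64918, 100616 and 77031 CPM in Puma-/-, 57088, 86373, 77284 and 88414 CPM in G3 mTerc-/-Puma+/+, and 64349, 70115 and 47982 CPM in G3 mTerc-/-Puma-/- replicates 1, 3 and 4. G3 mTerc-/-Puma-/- replicate 4 thus had the lowest mitochondrially encoded sum of the 14 libraries and a nuclear sum exceeded only by G3 mTerc-/-Puma+/+ replicate 2. For G3 mTerc-/-Puma-/- against WT, 12 of 13 were lower with a median of -0.49, while the nuclear members had a median of 0.01. None passed the adjusted threshold with edgeR, and 7 of the 13 had an unadjusted p under 0.05 (5.45% of all genes), among them mt-Nd5 of complex I (-0.50, adjusted p = 0.698) and mt-Atp6 of complex V (-0.66, adjusted p = 0.764). With G3 mTerc-/-Puma-/- replicate 2 included the median was -0.42 and only 2 of the 13 had an unadjusted p under 0.05. The 13 genes are encoded together in mitochondrial DNA, so these counts are not of independent genes. Kdm5d and Eif2s3y were called lower in G3 mTerc-/-Puma-/- in this comparison (adjusted p = 0.0177 and 0.00693). The part of the sex of the cells in it was not tested. Cell type markers differed in the same comparison without passing the adjusted threshold: 13 of 13 erythroid genes were higher (median 1.20), 7 of 7 late neutrophil genes were higher (1.71), 6 of 7 B lymphoid genes were higher (1.44) and 6 of 6 megakaryocyte genes were lower (-0.90), with unadjusted p under 0.05 for 6, 4, 5 and 5 of them. Late neutrophil sums were 679 to 1253 CPM in WT and 1375 to 3466 CPM in G3 mTerc-/-Puma-/-, megakaryocyte sums 136 to 289 and 128 to 178 CPM, erythroid sums 218 to 296 and 289 to 505 CPM, and B lymphoid sums 57.5 to 63.4 and 60.4 to 121 CPM. Only the late neutrophil sums did not overlap. The part of these cells in the mitochondrially encoded levels was not tested.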

How the data were processed

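Lineage-negative marrow RNA was sequenced from 15 libraries (TruSeq Stranded mRNA). The authors trimmed reads with Trimmomatic 0.38, mapped them to mm10 with STAR 2.5.2b and deposited raw counts of uniquely mapped reads per Ensembl gene; the annotation release and strand setting are not given in the sources used here. Symbols came from GENCODE vM21 (563 of 45706 identifiers had none). Libraries were grouped by labelled genotype. Fits used 14 libraries, edgeR 4.0.16 (R 4.3.3, TMM, filterByExpr, 18983 genes kept, all genotypes sharing 1 dispersion, quasi-likelihood test, Benjamini-Hochberg adjustment at 0.05), with limma 3.58.1 (voom) and DESeq2 1.42.0 as alternatives. log2 CPM used a prior count of 2. Copies were sought with blastn 2.17.0+ (97% identity, 100 bases). The procedure was tested on simulated counts with 200 changed genes. Named members were those past the threshold, the 3 per complex with the lowest p for any difference, the highest per kilobase in each complex, X-linked members, isoform pairs and members removed by the filter; others are named where they depart from the rest and were chosen after their values were seen. The members and lists were chosen with earlier results of these data known. Alternatives were other scalings, filters and tools, all 15 libraries, a replicate block, an Xist covariate, the compared groups alone and leaving out each library.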

Additional observations from a re-analysis of the deposited data

Results flagged for a closer look

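A library lying far from the other 3 of its genotype (Dixon's test at 95%) was found 29 times among 111 groups of 4 libraries examined, where chance gives about 1 in 20. The genes are not independent, since the members moved together, and most cases are the same 2 libraries.

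G3 mTerc-/-Puma+/+ replicate 2 was above the others in 18 cases. In normalised CPM it stood at 252 for Ndufa4 (the other 3 at 192 to 200.3), 96.0 for Ndufa9, 104 for Ndufs1, 211 for Sdhd, 222 for Uqcrc2, 144 for Uqcrfs1, 446 for Cox4i1, 277 for Cox6a1, 199 for Cox7a2, 294 for Cox8a, 351 for Atp5f1, 285 for Atp5g1 and 403 for Atp5g3. Its sums were 3751 for complex I, 1804 for complex III, 2562 for complex IV and 6131 for complex V, and its median deviation over the members was 0.34 (the other 3 at -0.04 to 0.00). Puma-/- replicate 3 was above the others of its group at 52.6 CPM for Ndufc2, 116 for Sdhc, 171 for Cyc1, 199.5 for Atp5g1, 131 for Atp5g2, 277 for Atp5g3 and 706 for the complex II sum. G3 mTerc-/-Puma-/- replicate 1 was below the others at 112 CPM for Cox7a2 (152 to 160.2). G3 mTerc-/-Puma-/- replicate 2, left out of the tests, stood at 110.5 CPM for Ndufb11 (146 to 153), 0.561 CPM for Cox6a2 (13.6 to 15.2) and 65.6 CPM for Cox6b2 (21.9 to 27.8).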

How the results depend on the processing

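Each count of members called and each median fold change was recomputed under 24 alternatives. Counts of 0 became 1, in each case Cox6a2, for G3 mTerc-/-Puma-/- against G3 mTerc-/-Puma+/+ and for any difference among genotypes with no count filter, with DESeq2 and with limma-voom, and for G3 mTerc-/-Puma-/- against Puma-/- with the compared groups alone. Leaving out 1 library at a time gave 0 to 1 members called in the first 2 of these tests, the 1 being without G3 mTerc-/-Puma+/+ replicate 1. No median moved by more than the spread of libraries within a genotype (0.18), but some changed direction. Leaving out 1 library gave medians of -0.22 to -0.06 for Puma-/- against WT, -0.04 (without G3 mTerc-/-Puma+/+ replicate 2) to 0.10 for G3 mTerc-/-Puma+/+ against WT, -0.06 (without G3 mTerc-/-Puma-/- replicate 4) to 0.13 for G3 mTerc-/-Puma-/- against WT, 0.07 to 0.26 for G3 mTerc-/-Puma+/+ against Puma-/- (lowest without G3 mTerc-/-Puma+/+ replicate 2 and highest without Puma-/- replicate 3), 0.05 to 0.24 for G3 mTerc-/-Puma-/- against Puma-/-, -0.13 to 0.07 for G3 mTerc-/-Puma-/- against G3 mTerc-/-Puma+/+, where leaving out G3 mTerc-/-Puma+/+ replicate 2 or G3 mTerc-/-Puma-/- replicate 1 put it above 0, and -0.02 (without G3 mTerc-/-Puma-/- replicate 4) to 0.18 for the interaction. Of the values for single named members, 739 kept their direction and side of the threshold or missed it under both settings, and 4, all for Cox6a2 in G3 mTerc-/-Puma-/- against G3 mTerc-/-Puma+/+, newly passed it. Cox6a2 in that comparison had an adjusted p of 0.39 with the compared groups alone.

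Replicate numbers are shared between genotypes without a stated meaning. Deviations of the 18 same-numbered pairs correlated between -0.25 and 0.18, 3 of them above 0.1, and 3 of 14 libraries correlated best with their own number, so the numbers were not taken to pair the samples. With the replicate block 0 members were called in any test, and the medians were -0.11, 0.05, 0.03, 0.17, 0.15, -0.04 and 0.08 in the order of the comparisons above.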
